A study of Mus musculus with 15 samples.

Results

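The 2 sets of wounded mouse skin libraries, 4 in each, were compared with each other in RNA sequencing of whole skin. They are 8 of the 15 libraries of the series. Set A comprised the columns s02, s04, s06 and s15 of the gene table (replicates A1 to A4), and set B the columns s08, s10, s12 and s14 (B1 to B4). The treatment names of these 8 libraries conflict. The sample records title set A Tam_wounded and set B Vehi_wounded, whereas the group row of the gene table names set A Vehicle_Wounded and set B Tam_Wounded. A sheet of the submitters lists the first pair of names as old and the second as new. Directions are therefore given by set, and every difference is set B minus set A. A treatment is named for the unwounded libraries alone, in which all sources give the same name.

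All libraries came from K14CreERTM/LSL-SOX2 mice on a 129/SvEv/C57/B16 X CD-1 background. In this line the keratin 14 promoter drives a Cre recombinase that tamoxifen activates, and Cre removes a stop cassette in front of a SOX2 transgene in basal keratinocytes and their descendants. The skin was painted with 200 µl of ethanol that held 5 mg/ml tamoxifen, or with ethanol alone as vehicle. Wounded skin was taken at day 4 and unwounded skin at day 0. The unwounded libraries numbered 7, with 3 from tamoxifen-treated and 4 from vehicle-treated skin. All groups carry the transgene, and none received tamoxifen without it. The sources give no ages and do not state whether each library is a separate mouse, so p-values may measure a technical spread. The title of the series asks about epidermal growth factor receptor (EGFR) ligands and MEK/ERK signalling in wound healing.

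SOX2 is a transcription factor of stem cells that in skin is normally found mainly in dermal papillae and Merkel cells. Hair follicles cycle between rest and growth. In growth, matrix cells differentiate into the hair shaft, built of hair keratins and keratin-associated proteins, and into the inner root sheath that moulds it. A skin wound is closed by keratinocytes that loosen from laminin anchors and migrate, while neutrophils, macrophages and T cells enter the dermis and interferons, complement and chemokines are induced.

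Depth ranged from 39277860 (A4) to 75102345 (B1) alignments per library. Values are RPKM, reads scaled by gene length and by the mapped reads of the library, and 13922 genes with at least 1 RPKM in at least 3 of the 15 libraries were tested with limma on log2(RPKM + 0.5). That scale understates differences of low genes. An adjusted p (Benjamini-Hochberg over all genes tested) below 0.05 is a call. Errors beside RPKM means are SDs over n = 4 libraries, and errors beside log2 differences are standard errors of the fit. Along the leading principal component of the wounded libraries, which held 75.1% of their variance, A1, A3 and A4 lay at -53.07, -48.07 and -43.47, set B lay between 24.7 and 44.65, and A2 lay between the sets at -8.21. Sox2 was at 2.02, 2.18, 1.87 and 3.82 RPKM in A1 to A4 and at 2.07, 2.64, 2.55 and 2.27 RPKM in B1 to B4 (two-sided exact permutation test, p = 1), and the sources do not say whether this row counts reads from the transgene. The sets overlapped, and A4 was the highest library. All 15 libraries had Xist at 12.5 to 18.5 RPKM and 4 Y-linked genes at 0.01 RPKM or below. Of the whole table, 752 genes held a value above 0 but below 1e-10 RPKM in some library, which whole reads cannot give. The sources do not say how reads shared by near-identical genes were counted, so the values of single hair, MHC and kallikrein paralogs are uncertain.

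Set B and set A differed in 4328 of the 13922 genes, or 31.1% of those tested. Of these, 2159 (15.5%) were higher in set B and 2169 (15.6%) were lower. The difference was at least 2-fold in 369 of the higher and 291 of the lower genes. In 3938 genes (28.3%) the values of the 2 sets did not overlap, and 3404 of these were called. The median log2 difference over all genes tested was 0.0023, so the counts for gene lists below, which cover the members that passed the filter, are read against 15.5% called higher and 15.6% called lower. Fits with replicate number as a block hold the wounded libraries alone, unless the block is said to be nested in wound state. With replicate number as a block and the pair A2 and B2 left out, the calls of Lgr6, Braf, Irf7, Cpa3, Awat2, Arntl, Sgk1 and Clec4n, all named below, were lost (adjusted p of at most 0.12). Genes of hair, of cell junctions and of the laminin anchor were called higher, and interferon-stimulated, MHC, complement, T cell, dendritic cell and endothelial genes were called lower.

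**Figure D1:**
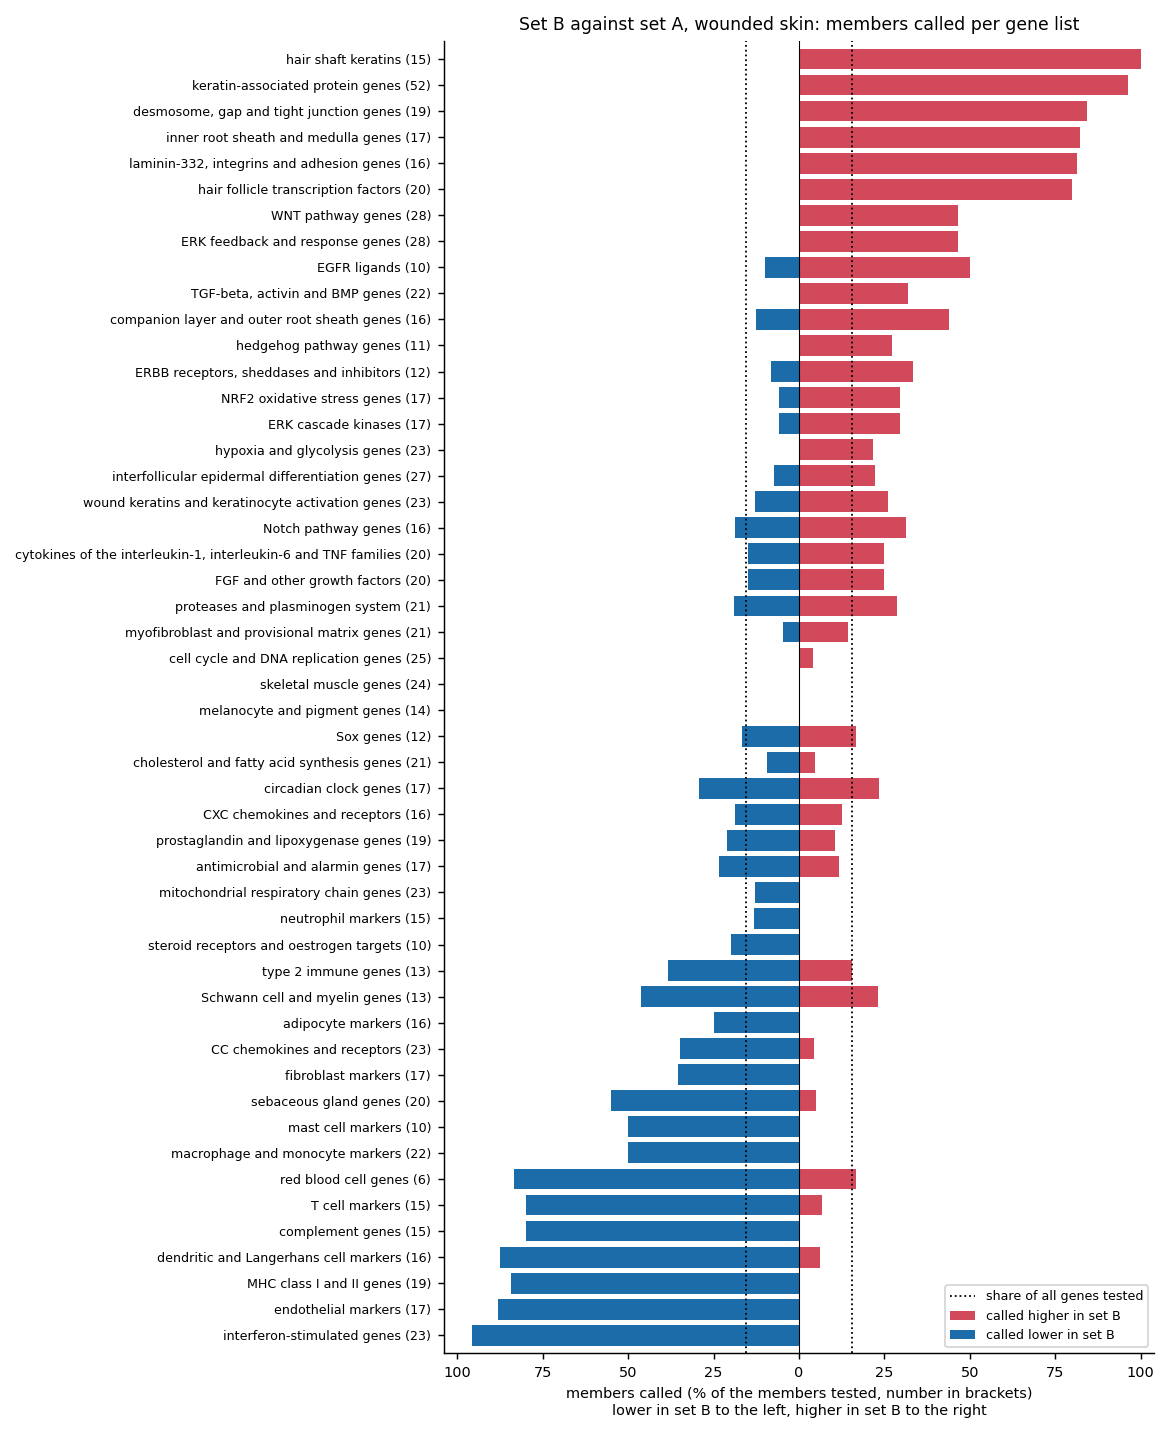
Share of the tested members of 50 gene lists that were called higher (red, right) or lower (blue, left) in set B than in set A, in percent of the members tested, whose number stands in brackets. The dotted lines mark the shares over all genes tested, 15.5% and 15.6%; the hair shaft keratins fill the right side and the interferon-stimulated genes stand at the foot with 22 of 23 members lower in set B.

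Hair shaft and inner root sheath genes made the largest differences. Krtap8-1, a glycine- and tyrosine-rich protein of the hair cortex (chromosome 16, 89487379 to 89487952, mm10), was at 1.98, 185, 4.62 and 1.32 RPKM in A1 to A4 and at 471, 1037, 892 and 954 RPKM in B1 to B4. Krt71, an inner root sheath keratin (chromosome 15, 101733949 to 101743109), was at 2.19, 412, 11.7 and 3.02 RPKM in the set A libraries and at 739, 1318, 1578 and 1306 RPKM in those of set B. In both genes every library of set B lay above every library of set A, and A2 stood far above A1, A3 and A4. The differences were 6.63 ± 1.06 and 6.33 ± 1.13 on the log2 scale (limma, adjusted p = 0.00048 and 0.0010). They were 8.14 and 7.94 without A2, and as low as 5.92 without A4 and 5.52 without A1. Krt25 and Krt27, partners of Krt71 in the inner root sheath, differed on the log2 scale by 6.34 and 6.32. Trichohyalin (Tchh), which fills inner root sheath and medulla cells, differed on the log2 scale by 5.95, and Padi3, the enzyme that deiminates trichohyalin, by 4.73. S100a3, a calcium-binding protein of the hair cuticle, differed on the log2 scale by 5.55, and the hair shaft keratins Krt86 and Krt34 by 6.25 and 6.08. Without A2 these differences were larger, at 7.99 for Krt25, 7.85 for Krt27, 7.35 for Tchh, 5.75 for Padi3, 7.05 for S100a3, 7.50 for Krt86 and 7.18 for Krt34. Without A1 they were 5.51 for Krt25, 5.53 for Krt27, 5.32 for Tchh and 4.93 for S100a3, and without A4 the differences of Krt71, Krt25 and Krt27 lay between those without A1 and the full ones. The size of these differences thus rested on single libraries of set A, and the calls did not.

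The promoters of Krtap8-1 and Krt71 are shown because the motif TATAAA recurs in this group. Each is the 250 bases before the gene's start in RefSeq (GRCm38.p6, the mm10 assembly), printed along the gene's strand with TATAAA in capitals, at chr16:89487953-89488202 and chr15:101743098-101743347, both on the minus strand.
Krtap8-1: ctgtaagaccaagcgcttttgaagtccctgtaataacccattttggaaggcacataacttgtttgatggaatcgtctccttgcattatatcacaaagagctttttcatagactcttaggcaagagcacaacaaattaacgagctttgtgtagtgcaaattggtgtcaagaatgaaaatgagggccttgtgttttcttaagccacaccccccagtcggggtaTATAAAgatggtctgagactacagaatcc
Krt71: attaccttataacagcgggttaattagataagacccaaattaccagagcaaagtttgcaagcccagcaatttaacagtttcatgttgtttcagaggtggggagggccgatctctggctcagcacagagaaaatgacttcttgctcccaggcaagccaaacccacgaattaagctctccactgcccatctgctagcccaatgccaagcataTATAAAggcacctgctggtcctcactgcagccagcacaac
TATAAA was searched on both strands in all RefSeq promoters of a gene. It was found for 38 of the 47 keratin-associated protein genes with a promoter in the table, for 6 of 8 hair shaft keratins and for 11 of 15 inner root sheath genes. Over all 10673 genes tested that had a promoter the share was 9.36%. Other lists also held it, with 4 of 17 interferon-stimulated genes, 4 of 14 MHC genes and 2 of 6 EGFR ligands. Of genes higher in set B 13.3% had it, and of genes lower 9.84%. A match describes letters and does not identify a bound site.

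Counts over the hair lists follow partly from the filter, since most members reach 1 RPKM in set B and in unwounded tamoxifen skin and not elsewhere. All 15 hair shaft keratins listed, 14 of 17 inner root sheath and medulla genes tested and 50 of 52 keratin-associated protein genes tested were called higher in set B and none lower, and 2 further keratin-associated protein genes did not pass the filter. With replicate number as a block, 1 inner root sheath and medulla gene was called lower. Summed over all 54 keratin-associated protein genes without a filter, the level was 18.3, 1063, 39.5 and 17.7 RPKM in A1 to A4 and 3616, 8149, 6717 and 7405 RPKM in B1 to B4. Summed over the 15 hair shaft keratins it was 3.91, 401, 9.27 and 5.13 RPKM in A1 to A4, and 682, 1410.4, 1472 and 1285 RPKM in B1 to B4. A2 held hair transcripts at an intermediate level, and the other libraries of set A resembled unwounded vehicle skin, where the keratin-associated protein sum was 18.9 to 44.7 RPKM. On the log2 scale A2 lay 74.7% of the way from the mean of A1, A3 and A4 to the mean of set B for the hair shaft keratins, 56.1% for follicle transcription factors, 50.5% for complement, 45.9% for interferon-stimulated, 41.2% for MHC and 38.4% for macrophage genes, 17.6% for junction genes and 8.71% for T cell markers. For other lists A2 lay beyond the mean of A1, A3 and A4, on the side away from set B. Among them were endothelial markers (-7.96%), ERK feedback genes (-13.1%), sebaceous gland genes (-14.5%), laminin and adhesion genes (-17.4%) and mast cell markers (-39.5%). In whole skin, fewer cells of a type and less RNA per cell cannot be told apart.

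**Figure D2:**
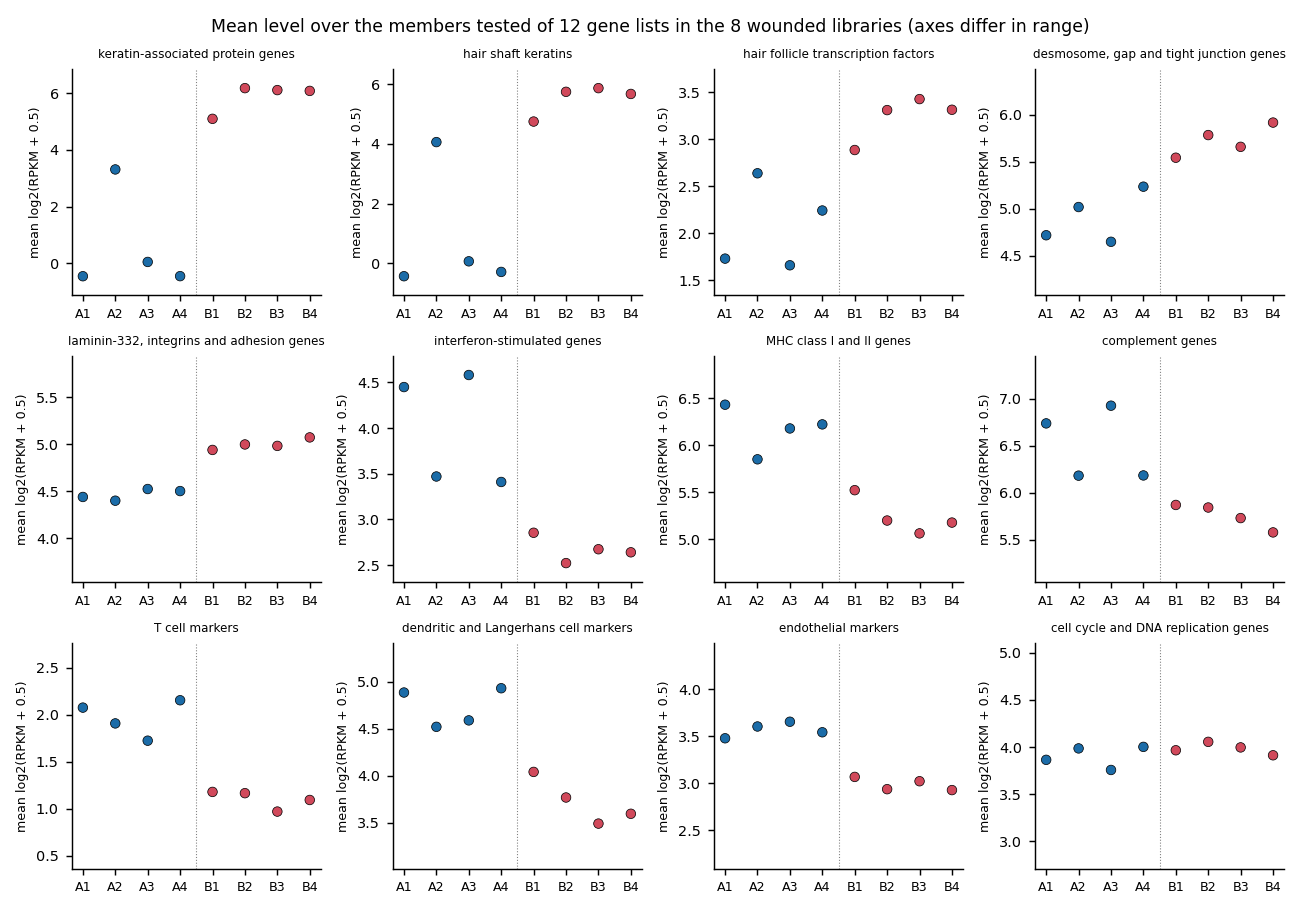
Mean log2(RPKM + 0.5) over the tested members of 12 gene lists in each of the 8 wounded libraries, set A in blue and set B in red. A2 lies between the sets for the hair lists, A1 and A3 lie above A2 and A4 for interferon-stimulated and complement genes, and the cell cycle genes of all 8 libraries lie close together.

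Transcription factors of the growing follicle were higher in set B in 16 of 20 members and lower in none, with a median log2 difference of 1.02. Foxn1, the nude gene required for hair shaft formation, was at 1.80, 4.29, 1.80 and 3.02 RPKM in the set A libraries and 6.19, 10.9, 10.3 and 10.2 RPKM in those of set B. The sets did not overlap, and the highest library of set A was again A2. Foxn1 differed on the log2 scale by 1.66 ± 0.22 (adjusted p = 0.00015). Hoxc13, an activator of hair keratin genes, differed on the log2 scale by 2.99 (adjusted p = 0.00036), and Msx2, Dlx3 and Foxe1, homeobox and forkhead factors of the follicle, by 2.74, 2.44 and 2.19 (adjusted p of 0.00066, 0.00051 and 0.00010). Without A2, Hoxc13 and Msx2 differed on the log2 scale by 3.58 and 3.39. Of 16 companion layer and outer root sheath genes 7 were higher and 2 lower. Krt75, the companion layer keratin, was at 3.61, 22.9, 3.29 and 5.53 RPKM in the set A libraries and 44.3, 74.5, 85.4 and 65.7 RPKM in those of set B, with no overlap. Its log2 difference was 3.27, and 3.86 without A2. Sox9, a factor of follicle stem cells and the outer root sheath, differed on the log2 scale by 1.55 ± 0.18 (adjusted p = 6.2e-05) and Lgr5, a stem cell receptor of the lower follicle, by 1.19 ± 0.22 (adjusted p = 0.0014). Lgr6, a receptor of upper follicle stem cells, was lower in set B, with a log2 difference of -0.92 ± 0.22 (adjusted p = 0.0064).

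Ligands of EGFR were the subject of the study's title. Of 10 ligands of the EGF family tested 5 were higher in set B, and 1, Nrg4, a ligand of ERBB4 and not of EGFR, was called lower (adjusted p = 0.027, a call lost when any of A2, A3, A4, B3 or B4 was left out, the highest adjusted p over all alternatives being 0.10). Tgfa, a ligand made by keratinocytes, was at 6.82, 9.74, 6.55 and 9.68 RPKM in A1 to A4 and 15.9, 20.3, 19.4 and 22.4 RPKM in B1 to B4. Areg (amphiregulin) was at 6.92, 8.68, 5.25 and 10.8 RPKM in A1 to A4 and 15.9, 16.8, 22.1 and 23.1 RPKM in B1 to B4. Both were higher in every library of set B than in any of set A. Tgfa differed on the log2 scale by 1.21 ± 0.14 and Areg by 1.27 ± 0.22 (adjusted p = 4.8e-05 and 0.00095). Btc, also a ligand of ERBB4, was at 1.97 ± 0.290 RPKM in the set A libraries and 5.25 ± 1.55 RPKM in those of set B (adjusted p = 0.0088). Egfr itself was not called (log2 difference 0.15 ± 0.08, adjusted p = 0.20). Lrig1, a membrane protein that promotes EGFR degradation, differed on the log2 scale by 0.85 ± 0.16 (adjusted p = 0.0015), while Cblb, a ubiquitin ligase of activated receptors, was lower and differed on the log2 scale by -0.58 ± 0.07 (adjusted p = 5.6e-05).

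Of 28 feedback and response genes of the ERK pathway 13 were higher in set B and none lower, with a median log2 difference of 0.41. Dusp2 and Dusp6, phosphatases that inactivate ERK and are induced by it, were at 2.52, 3.87, 2.06 and 1.80 RPKM and 19.1, 20.2, 24.1 and 22.1 RPKM in A1 to A4. In B1 to B4 they were at 6.63, 9.99, 8.60 and 10.02 RPKM and 26.7, 32.8, 38.3 and 38.4 RPKM. Neither gene overlapped between the sets (adjusted p = 0.00032 and 0.0015). Fosl1, an AP-1 subunit of migrating keratinocytes, differed on the log2 scale by 1.17 ± 0.28 (adjusted p = 0.0058), whereas Fos varied more within the sets than between them, at 0.29 ± 0.38 (adjusted p = 0.59). Of the 17 kinases, GTPases and adaptors of the cascade 5 were higher and 1 lower, and Braf, a kinase that activates MEK, differed on the log2 scale by 0.42 ± 0.09 (adjusted p = 0.0025). Map2k1, which encodes MEK1, was not called (log2 difference 0.23 ± 0.09, adjusted p = 0.057), but was when A1 or A3 was left out. These are transcript levels, and phosphorylation was not measured.

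Genes of cell junctions were higher in set B in 16 of 19 members and lower in none, with a median log2 difference of 0.70. Gja1, the gap junction protein connexin 43, was at 87.6, 136, 92.02 and 112 RPKM in the set A libraries and 216, 336, 283 and 359 RPKM in those of set B. Dsc2, a desmosomal cadherin, was at 11.7, 14.5, 11.8 and 11.2 RPKM in the set A libraries and 28.1, 33.4, 27.5 and 35.8 RPKM in those of set B. No library of set B reached down to set A in either gene (log2 differences 1.47 ± 0.16 and 1.30 ± 0.16, adjusted p = 4.8e-05 and 9.0e-05). Dsg4, the desmosomal cadherin of hair, differed on the log2 scale by 2.68, Dsg2 by 0.91, the tight junction proteins Cldn1 and Cldn4 by 0.77 and 1.14, and E-cadherin (Cdh1) by 0.61 (adjusted p of 0.00010, 0.00022, 0.00052, 0.0013 and 0.0013). Dsg1b, a desmoglein of upper epidermis, was not called (log2 difference 0.16 ± 0.13, adjusted p = 0.37).

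Lama3 and Lamb3 encode chains of laminin-332, the anchor on which keratinocytes rest and which they lay down as they migrate, and both were higher in set B. Lama3 was at 8.34, 6.62, 8.08 and 6.22 RPKM in the set A libraries and 14.99, 16.8, 14.2 and 15.4 RPKM in those of set B. Both sets were tight and far apart, with A2 and A4 lowest in set A. The log2 differences were 1.02 ± 0.10 and, for Lamb3, 0.83 ± 0.08 (adjusted p = 1.7e-05 and 1.8e-05). Of the 16 laminin, integrin and adhesion genes 13 were higher and none lower. Col17a1, the hemidesmosomal collagen, differed on the log2 scale by 0.63 (adjusted p = 0.00082), and Itgb1, the common beta-1 integrin, was not called (adjusted p = 0.15).

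Differentiation and wound genes of the epidermis were split. Of 27 interfollicular differentiation genes 6 were higher and 2 lower. Krt80, an epithelial keratin of differentiating cells, differed on the log2 scale by 1.17, Spink5, the inhibitor of epidermal kallikreins, by 0.96, and Klk7, a kallikrein of desquamation, by 0.95 (adjusted p of 0.00021, 0.00093 and 0.0081). Krt1 and Krt10, the keratins of suprabasal epidermis, were lower and differed on the log2 scale by -1.17 ± 0.34 and -0.86 ± 0.25 (adjusted p = 0.018 and 0.017). Those 2 calls rested on the fit, since with replicate number as a block the adjusted p was 0.081 and 0.10, and both were lost without B2 or without B4 (highest adjusted p over all alternatives 0.21 and 0.23). The wound keratin Krt6a was at 1792, 1842, 1609 and 1902 RPKM in the set A libraries and 2708, 2755, 2437 and 3341 RPKM in those of set B, without overlap. It was not called in the main fit, but was with replicate number as a block in the wounded libraries alone (adjusted p = 0.27 and 0.0047). The parts of the block and of leaving out the unwounded libraries in that call were not told apart. Sprr1a, a cornified envelope precursor, differed on the log2 scale by 1.62 ± 0.29 and Gjb2, connexin 26, by 1.29 ± 0.26 (adjusted p = 0.0011 and 0.0020). Sprr2b, of the same envelope family, went the other way, at 62.8, 129, 26.6 and 68.01 RPKM in the set A libraries and 5.51, 5.61, 3.18 and 3.29 RPKM in those of set B (log2 difference -3.71 ± 0.42, adjusted p = 5.0e-05), as did the serpin Serpinb3a (-2.58, adjusted p = 4.8e-05).

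Among 21 proteases and plasminogen system genes 6 were higher and 4 lower. Mmp10, a stromelysin of migrating keratinocytes, differed on the log2 scale by 1.39 ± 0.18 (adjusted p = 0.00014). Mmp2, a gelatinase made by fibroblasts, and its binding partner Timp2 were lower and differed on the log2 scale by -0.83 ± 0.11 and -0.71 ± 0.10 (adjusted p = 0.00011 and 0.00027).

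Interferon-stimulated genes were lower in set B in 22 of 23 members, the largest share called lower of the 50 lists drawn, with a median log2 difference of -1.34. With replicate number as a block, 19 members were called lower. Mx1, an antiviral GTPase, was at 14.04, 6.23, 14.8 and 6.08 RPKM in A1 to A4 and 2.50, 1.57, 2.31 and 2.29 RPKM in B1 to B4. Isg15, a ubiquitin-like modifier, was at 58.1, 34.7, 73.1 and 37.5 RPKM in the set A libraries and 15.01, 12.5, 18.001 and 13.2 RPKM in those of set B. In set A the libraries A1 and A3 stood above A2 and A4, and all 4 lay above set B. Mx1 differed on the log2 scale by -1.92 ± 0.28 and Isg15 by -1.70 ± 0.28 (adjusted p = 0.00026 and 0.00053). Ifit1, an RNA-binding antiviral protein, differed on the log2 scale by -1.73 ± 0.30, and Stat2 and Irf7, which carry the interferon signal to these genes, by -1.01 ± 0.17 and -1.52 ± 0.37 (adjusted p of 0.00092, 0.00054 and 0.0073). Iigp1, an interferon-gamma-induced GTPase, was the member not called (log2 difference -0.87 ± 0.34, adjusted p = 0.066), though it was called when A2 or A4 was left out. Cxcl10, a chemokine counted in this list, differed on the log2 scale by -1.74 ± 0.38 (adjusted p = 0.0039).

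The 250 bases before the starts of Isg15 and Ifit1 are shown because an interferon-type motif, GAAA followed by any 2 bases and GAAA, recurs in this list. They are from RefSeq (GRCm38.p6), along the gene's strand, at chr4:156200819-156201068 on the minus strand and chr19:34640639-34640888 on the plus strand, with the motif in capitals on either strand (overlapping matches run together in Isg15, and the capitals in Ifit1, with TTTC at each end, are the motif read on the other strand).
Isg15: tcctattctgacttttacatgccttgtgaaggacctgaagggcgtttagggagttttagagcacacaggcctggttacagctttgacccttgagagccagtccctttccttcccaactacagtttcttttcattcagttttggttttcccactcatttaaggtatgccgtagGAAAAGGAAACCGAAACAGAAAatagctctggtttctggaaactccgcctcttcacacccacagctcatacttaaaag
Ifit1: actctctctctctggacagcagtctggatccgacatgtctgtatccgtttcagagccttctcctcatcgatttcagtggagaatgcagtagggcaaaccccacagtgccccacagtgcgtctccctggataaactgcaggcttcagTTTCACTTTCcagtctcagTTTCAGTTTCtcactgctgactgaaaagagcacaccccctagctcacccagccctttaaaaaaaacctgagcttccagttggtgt
This motif was found before 11 of the 17 interferon-stimulated genes with a promoter in the table, against 3.42% of the 10673 genes tested with a promoter. It was found before 6.10% of the genes lower in set B and before 2.65% of those higher. By its letters it cannot share bases with TATAAA on either strand, so the absence of shared bases in the promoters searched is no result. These shares describe letters and identify no bound factor.

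MHC genes were lower in 16 of 19 members and higher in none, with a median log2 difference of -1.06. H2-Aa, an MHC class II chain of antigen-presenting cells, was at 689, 444, 568 and 529 RPKM in the set A libraries and 250.3, 157, 149 and 150.0 RPKM in those of set B. The sets did not overlap, and B1 was the highest of set B. H2-Aa differed on the log2 scale by -1.67 ± 0.19, Cd74, the class II invariant chain, by -1.68 ± 0.21, and H2-D1, a class I heavy chain, by -1.19 ± 0.13 (adjusted p = 5.0e-05, 9.4e-05 and 5.0e-05). B2m, the light chain of class I, was lower and differed on the log2 scale by -0.87 ± 0.14 (adjusted p = 0.00050). Nlrc5, an activator of class I genes, was not called (log2 difference -0.10 ± 0.11, adjusted p = 0.55). Complement genes were lower in 12 of 15 members (10 with replicate number as a block) and higher in none. C4b differed on the log2 scale by -1.39 ± 0.19 and C2 by -1.08 ± 0.18 (adjusted p = 0.00015 and 0.00073).

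**Figure D3:**
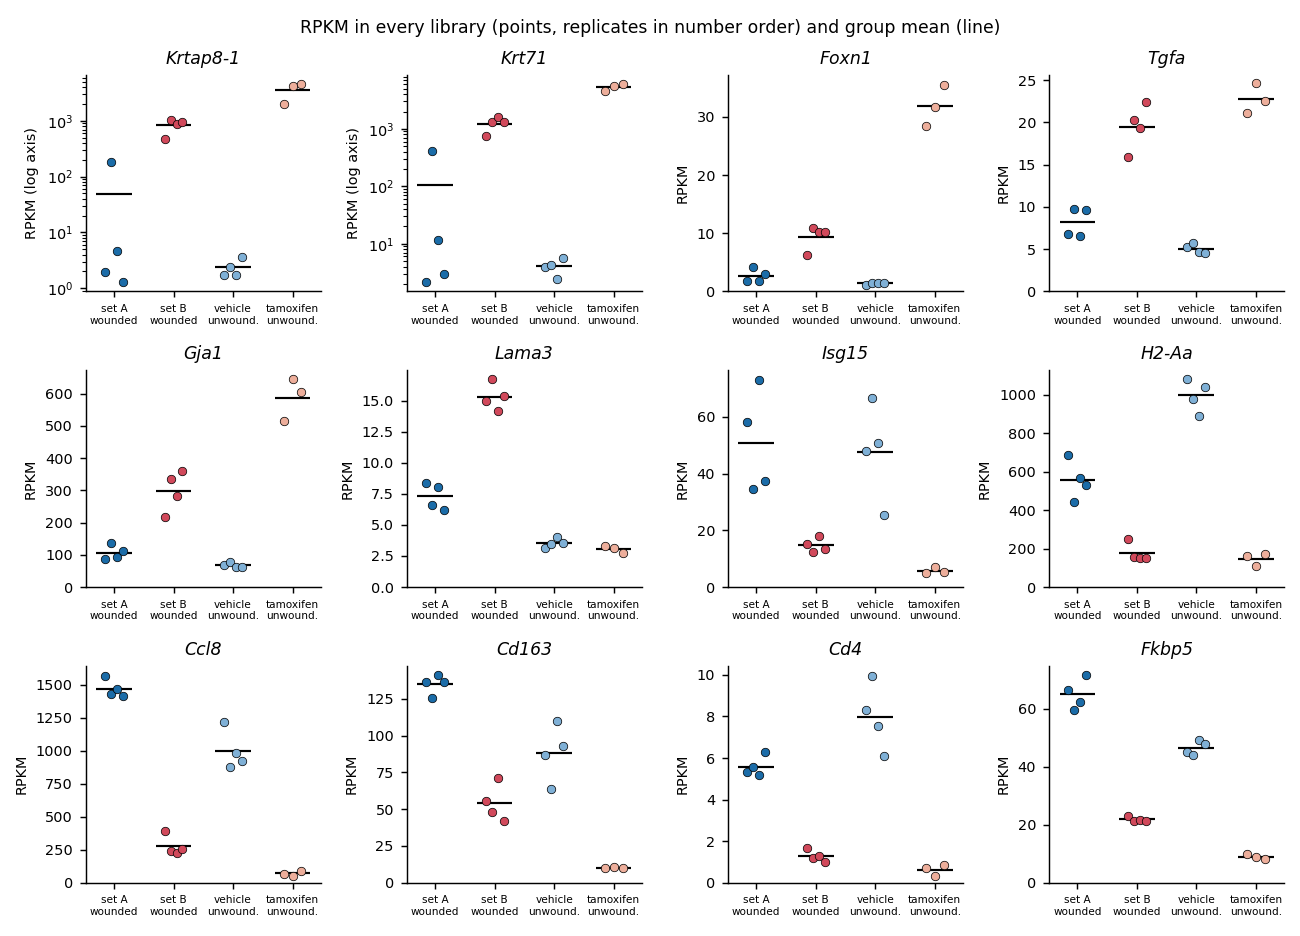
RPKM of 12 genes in every library of the 4 groups, with the group mean as a line; the axes of Krtap8-1 and Krt71 are logarithmic and the others start at 0. Hair, junction, laminin and ligand genes stand higher in set B, interferon, MHC, chemokine, macrophage and T cell genes stand higher in set A, and A2 is the single library of set A near set B for Krtap8-1 and Krt71.

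Chemokines and cytokines moved in both directions. Ccl8, a monocyte and T cell attractant, was at 1570.2, 1427, 1466 and 1413 RPKM in A1 to A4 and 388, 239.9, 226 and 253 RPKM in B1 to B4. The set A values lay close together and several-fold above set B (log2 difference -2.44 ± 0.18, adjusted p = 2.4e-06). Cxcl14, a chemokine made by epithelium, was at 23.05, 31.5, 18.6 and 33.3 RPKM in the set A libraries and 106, 164, 163 and 199 RPKM in those of set B, the reverse order without overlap (log2 difference 2.55 ± 0.23, adjusted p = 1.4e-05). Of 23 CC chemokines and receptors 8 were lower and 1 higher (0 higher without A2), and Ccl21a, the lymphatic chemokine, differed on the log2 scale by -1.53 (adjusted p = 5.2e-05). Il1b, the inflammasome cytokine, was higher in set B, at 85.99, 96.8, 132 and 71.3 RPKM against 40.8, 53.9, 58.2 and 45.05 RPKM in set A (adjusted p = 0.0082). Il1f6, which encodes interleukin-36 alpha of keratinocytes, and Tslp, an epithelial cytokine that drives type 2 immunity, were lower and differed on the log2 scale by -1.86 ± 0.34 and -0.83 ± 0.16 (adjusted p = 0.0012 and 0.0016).

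Of 22 macrophage and monocyte markers 11 were lower in set B and none higher (1 with replicate number as a block). Cd163, a scavenger receptor of resident macrophages, was at 136, 126, 141 and 137 RPKM in the set A libraries and 55.6, 48.1, 70.9 and 41.6 RPKM in those of set B. No values overlapped (log2 difference -1.34 ± 0.16, adjusted p = 7.1e-05). Mrc1, the mannose receptor, Csf1r, the receptor of macrophage growth factor, and Mertk, an engulfment receptor, differed on the log2 scale by -0.95, -0.99 and -1.02 (adjusted p of 0.0019, 0.0031 and 0.00086), and Retnla, a marker of interleukin-4-exposed macrophages, by -2.09 (adjusted p = 0.0087). Spp1, osteopontin of wound macrophages, was not called (log2 difference 0.80 ± 0.37, adjusted p = 0.12). The summed level of all 22 markers was 2470 to 5323 RPKM in set A and 1995 to 2904 RPKM in set B. Neutrophil markers were summed at 1811 to 3643 RPKM in set A and 1220.0 to 2070 RPKM in set B, far above the 41.9 to 177 RPKM of the unwounded libraries. Of 15 neutrophil markers tested 2, S100a8 and Ly6g, were called lower. Each call was lost when any of A1, A2, A3, B2 or B4 was left out, that of S100a8 also without B3 and that of Ly6g also without B1 (adjusted p = 0.047 and 0.038, at most 0.14 and 0.22 over the alternatives). Cxcr2, the neutrophil chemokine receptor, was not called in the main fit (log2 difference 0.60 ± 0.30, adjusted p = 0.15). It was called higher with replicate number as a block in the wounded libraries alone (adjusted p = 0.042). Another alternative gave a lower adjusted p (0.026), so the block is not shown to be what the call needs.

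Dendritic and Langerhans cell markers were lower in 14 of 16 members and T cell markers in 12 of 15. Of the T cell markers, 1, the chemokine receptor Ccr4, was called higher, a call lost with replicate number as a block, with the wounded libraries alone and with no filter. Cd209d, a lectin of dermal antigen-presenting cells, was at 87.4, 86.9, 66.1 and 110.4 RPKM in the set A libraries and 22.3, 18.6, 9.99 and 13.8 RPKM in those of set B, and Clec10a, a lectin of dendritic cells, differed on the log2 scale by -1.91 ± 0.21 (adjusted p = 1.8e-05 and 4.8e-05). Cd207 (langerin), which defines Langerhans cells, was lower and differed on the log2 scale by -1.23 ± 0.24 (adjusted p = 0.0020). Epcam, also an epithelial gene, was the single member higher in set B (1.39 ± 0.27, adjusted p = 0.0017). Cd4, the co-receptor of helper T cells, was at 5.30, 5.55, 5.20 and 6.28 RPKM in the set A libraries and 1.65, 1.16, 1.30 and 0.981 RPKM in those of set B. Foxp3, the factor of regulatory T cells, was at 2.69, 2.097, 1.69 and 3.35 RPKM in the set A libraries and 0.489, 0.577, 0.338 and 0.616 RPKM in those of set B. Neither overlapped between the sets (log2 differences -1.79 ± 0.17 and -1.53 ± 0.18, adjusted p = 1.7e-05 and 7.7e-05), and Cd3e of the T cell receptor complex differed on the log2 scale by -1.12 (adjusted p = 0.00013). Of 21 T cell markers listed, 16 had values in the gene table. Those 16 summed to 98.5 to 146 RPKM in set A and to 83.5 to 101 RPKM in set B. The sums thus overlapped although 12 single markers were lower. None of the 16 was at 0 in all libraries. Of 10 mast cell markers 5 were lower, 3 of them without A2. Gata2, a factor of mast cells, differed on the log2 scale by -0.98 ± 0.14 and the protease Cpa3 by -0.93 ± 0.24 (adjusted p = 0.00023 and 0.0087).

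Endothelial markers were lower in 15 of 17 members, by a median of -0.55. Plvap, the diaphragm protein of capillaries, was at 88.1, 86.2, 92.2 and 105 RPKM in the set A libraries and 59.8, 50.3, 58.2 and 50.98 RPKM in those of set B, without overlap (adjusted p = 1.8e-05), and Pecam1 differed on the log2 scale by -0.51 ± 0.11 (adjusted p = 0.0026). Summed, the endothelial markers were at 323 to 348 RPKM in set A and 194 to 223 RPKM in set B. Fibroblast markers were lower in 6 of 17 members and higher in none. Pdgfra, a receptor that marks dermal fibroblasts, differed on the log2 scale by -0.80 ± 0.14 and Dcn, decorin, by -0.58 ± 0.11 (adjusted p = 0.0012 and 0.0020), while Postn, periostin of the wound matrix, was not called (log2 difference 0.24 ± 0.16, adjusted p = 0.27). Thbs1, thrombospondin-1 of the wound matrix, was higher, at 96.9, 123, 132 and 123 RPKM in set B and 39.5, 57.5, 82.8 and 51.8 RPKM in set A (adjusted p = 0.0031). Sebaceous gland genes were lower in 11 of 20 members and higher in 1. Awat2, a wax synthase of sebocytes, differed on the log2 scale by -1.18 ± 0.23 and Soat1, an enzyme that esterifies cholesterol, by -0.79 ± 0.11 (adjusted p = 0.0016 and 0.00026). None of 24 skeletal muscle genes and none of 14 pigment genes was called. The muscle genes varied among libraries of a set, with a summed level of 1988 to 7022 RPKM in set A and 2008 to 4818 RPKM in set B. The part of these cell type differences in the differences of other genes was not tested.

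Of the signalling lists, the WNT genes were higher in 13 of 28 members and lower in none. Wnt11, a ligand, and Fzd5, a receptor, differed on the log2 scale by 1.61 ± 0.15 and 1.42 ± 0.15 (adjusted p = 1.4e-05 and 4.0e-05). Jag1, a Notch ligand, differed on the log2 scale by 0.998 ± 0.12, and Inhba and Inhbb, the activin subunits, by 0.83 and 1.003 (adjusted p = 8.8e-05, 0.00053 and 0.00011). Fgf22 and Fgf5, growth factors of the follicle, the second of which ends hair growth in mice, were higher on the log2 scale by 1.65 ± 0.30 and 1.48 ± 0.31 (adjusted p = 0.0011 and 0.0026). Pdgfc and Igf1 were lower and differed on the log2 scale by -1.08 ± 0.12 and -1.02 ± 0.17 (adjusted p = 5.6e-05 and 0.00071). Of 17 NRF2 targets and regulators 5 were higher and 1, the NRF2 inhibitor Keap1, lower (lost with replicate number as a block and with the wounded libraries alone). Among the higher was Gclc of glutathione synthesis (0.97 ± 0.12, adjusted p = 0.00012). Of 17 circadian clock genes 4 were higher and 5 lower. Per2 and Ciart, repressors of the clock, were lower and differed on the log2 scale by -0.60 ± 0.11 and -0.56 ± 0.10, and Arntl, its activator BMAL1, was higher on the log2 scale by 0.35 ± 0.07 (adjusted p = 0.0011, 0.00095 and 0.0024). The sources do not give the hour at which skin was taken. Of 25 cell cycle and replication genes 1, Rrm2, was called, and Mki67, the proliferation marker, was at 12.1, 14.7, 11.4 and 11.9 RPKM in the set A libraries and 12.5, 14.6, 13.8 and 12.7 RPKM in those of set B (adjusted p = 0.63). The call of Rrm2 (adjusted p = 0.043) was lost without A1, A3, B1, B2 or B4 (at most 0.12).

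Of the 10 genes with the smallest p in each direction, none but Krtap5-1 belonged to a list described above. Serpina3k and Serpina3h, secreted serine protease inhibitors of a multigene cluster, were at 0.289, 0.418, 0.298 and 0.556 and 16.4, 10.4, 13.4 and 16.5 RPKM in set A. In set B they were at 4.45, 4.34, 3.59 and 5.13 and 97.8, 97.9, 70.2 and 96.02 RPKM, many times the set A levels in every library. They differed on the log2 scale by 2.45 ± 0.14 and 2.64 ± 0.19 (adjusted p = 9.7e-08 and 1.9e-06). Serpina3b of the same cluster was lower and differed on the log2 scale by -2.52 ± 0.27 (adjusted p = 4.5e-05). Mical2, an actin-oxidizing enzyme, was higher on the log2 scale by 1.09 ± 0.08, Clec2e, a C-type lectin gene, by 1.86 ± 0.17, and Fam83a, linked to EGFR signalling in human breast cancer cells, by 1.15 ± 0.10 (adjusted p = 2.4e-06, 1.4e-05 and 1.2e-05). Of the lower genes, Zfp949, a zinc finger gene, was at 9.84, 10.3, 9.81 and 9.005 RPKM in the set A libraries and 3.06, 3.34, 3.01 and 3.04 RPKM in those of set B, and Npy1r, a neuropeptide Y receptor, at 5.13, 5.50, 6.03 and 5.24 RPKM and 1.85, 2.05, 1.57 and 1.996 RPKM (adjusted p = 1.7e-09 and 8.6e-08). Nnat, neuronatin, and Akr1cl, an aldo-keto reductase, were lower and differed on the log2 scale by -2.74 ± 0.25 and -2.65 ± 0.25 (adjusted p = 1.4e-05 and 1.8e-05).

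Fkbp5, a chaperone partner that glucocorticoids induce, was at 66.4, 59.7, 62.3 and 71.7 RPKM in A1 to A4 and 23.1, 21.2, 21.6 and 21.2 RPKM in B1 to B4. Zbtb16, a transcription factor that they also induce, was at 4.23, 4.12, 4.83 and 4.20 RPKM in the set A libraries and 0.877, 1.01, 0.937 and 0.828 RPKM in those of set B. Each set was tight in both genes, and the sets were about 3-fold or more apart (log2 differences -1.55 ± 0.07 and -1.78 ± 0.09, adjusted p = 1.5e-08 and 2.7e-08). After these values were seen, 5 further genes known to respond to glucocorticoids were looked up. Tsc22d3 (the glucocorticoid-induced leucine zipper), Klf9 and Hif3a were lower and differed on the log2 scale by -1.05, -0.84 and -1.52 (adjusted p = 4.7e-05, 0.00041 and 3.3e-06), Per1 was not called (log2 difference 0.01 ± 0.10), and Sgk1 was higher on the log2 scale by 0.44 (adjusted p = 0.011). Glucocorticoids were not measured.

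Some genes were near absent in set B and well expressed in set A. H2-Q2, an MHC class I gene (chromosome 17, 35342242 to 35346762), was at 20.4, 12.6, 21.5 and 32.98 RPKM in A1 to A4 and 0.203, 0.336, 0.142 and 0.101 RPKM in B1 to B4. H2-Ea-ps, the MHC class II E alpha gene, which strains of the b haplotype such as C57BL/6 do not transcribe (chromosome 17, 34341959 to 34344645), was at 5.58, 3.98, 4.21 and 4.58 RPKM in set A and at 0.0208, 0, 0.0254 and 0 RPKM in set B. BC018473, annotated as an antisense RNA (chromosome 11, 116752167 to 116759373), was at 13.9, 17.6, 13.7 and 10.4 RPKM in the set A libraries and 0.0611, 0.0505, 0.0373 and 0.0552 RPKM in those of set B. In the unwounded libraries H2-Q2 was at 15.4, 21.05, 15.9 and 14.9 RPKM with vehicle and 0.0952, 0.330 and 0.276 RPKM with tamoxifen, and H2-Ea-ps was at 6.43 to 8.60 RPKM with vehicle and at most 0.0282 RPKM with tamoxifen. Set A thus lay with unwounded vehicle skin and set B with unwounded tamoxifen skin. A rule set after these values were seen, that the lowest library of one side be at least 4-fold above the highest of the other and at least 0.5 RPKM, found 14 genes in which set A and vehicle stood above set B and tamoxifen. It found 44 genes in the opposite order, 22 of them with a keratin or keratin-associated protein symbol, and 0 genes in either order for the crossed grouping of set A with tamoxifen and set B with vehicle. Of the 14 genes, 6 lie on chromosome 17 between 34341959 and 36168537, in the MHC region. Of 117 tested genes that start between 34 and 37 megabases on that chromosome, 38 (32.5%) were lower in set B and 14 (11.97%) higher. Over all genes tested the shares were 15.6% and 15.5%. That window was drawn to hold the 6 genes, and it also holds H2-Aa, H2-D1, C4b and C2, described above as lower. Its share of lower genes is thus partly fixed by that choice. The stock of these mice is mixed, and whether the sets differ in inherited alleles was not tested.

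**Figure D4:**
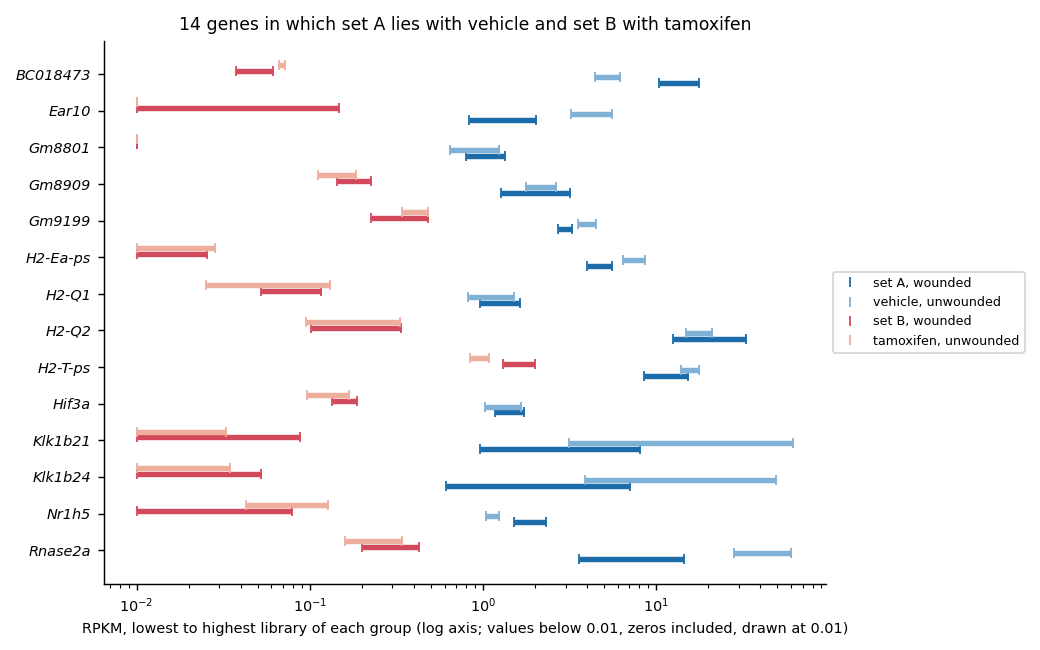
Lowest to highest RPKM in each of the 4 groups for the 14 genes in which every library of set A and of unwounded vehicle skin stood at least 4-fold above every library of set B and of unwounded tamoxifen skin (logarithmic axis, values below 0.01 drawn at 0.01). The blue bars of set A and vehicle lie to the right of the red bars of set B and tamoxifen in each row, which is the rule by which the genes were chosen.

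The unwounded comparison, tamoxifen minus vehicle, shares no library with the wounded one. It called 34.7% of genes higher and 34.7% lower, more than the wounded comparison, and the median absolute log2 difference was 0.42 against 0.17. Across the 13922 genes the 2 sets of log2 differences had Pearson's r of 0.85, a description across genes that are not independent and share one annotation and one model. Of the 2159 genes higher in set B, 1728 were also called higher with tamoxifen in unwounded skin and 105 lower. Of the 2169 genes lower in set B, 1884 were also called lower and 38 higher. The test of the difference between the 2 contrasts called 5565 genes, or 40% of those tested. These included all 143 of opposite sign, which 2 calls of opposite sign in the same fit all but ensure. A further 573 genes were called between the wounded sets and not in unwounded skin.

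**Figure D5:**
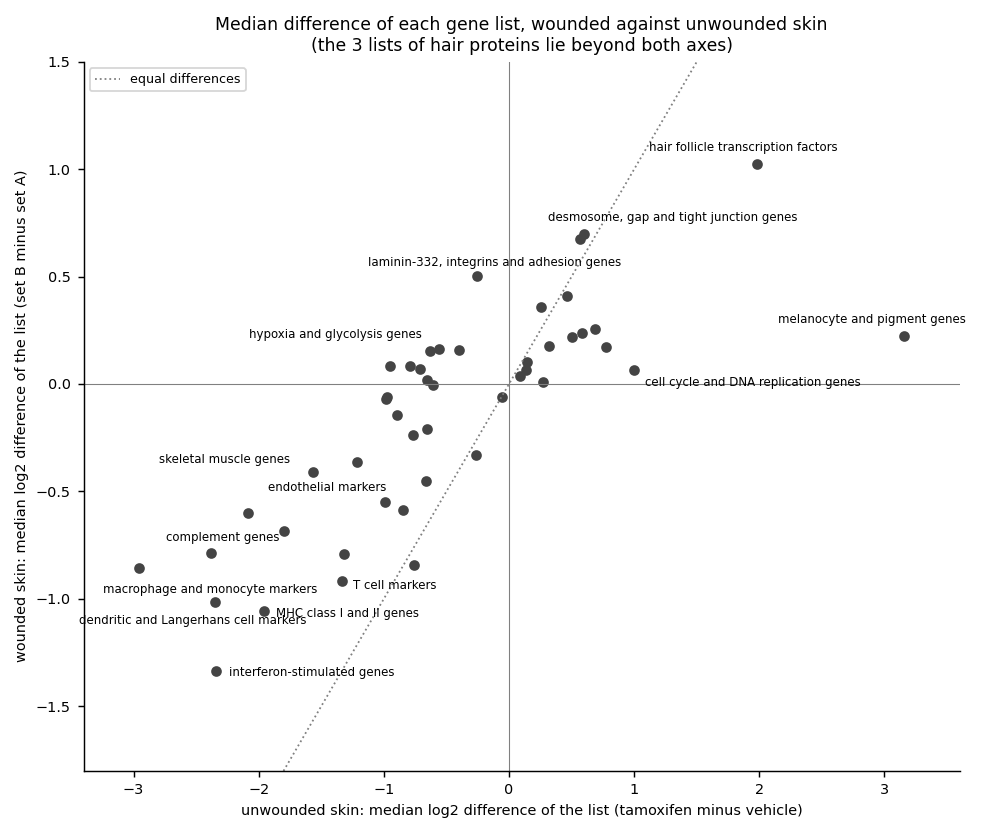
Median log2 difference of the tested members of each gene list in unwounded skin (horizontal, tamoxifen minus vehicle) and in wounded skin (vertical, set B minus set A), for 47 lists, with the dotted line at equal differences. Interferon, MHC, complement and macrophage lists lie low in both, the laminin and glycolysis lists lie left of 0 and above 0, and the pigment and cell cycle lists lie right of 0 with small vertical values.

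Genes of anchorage and glycolysis differed between the contrasts. The laminin, integrin and adhesion list had 13 members higher in set B, but 4 higher and 9 lower with tamoxifen in unwounded skin, and the contrasts differed in 13 of its 16 members. Lamb3 was lower in unwounded tamoxifen skin by -0.42 (adjusted p = 0.00065) and higher in set B, and the difference of contrasts was 1.24 (adjusted p = 2.4e-05). Il1b was lower with tamoxifen in unwounded skin, by -1.04 on the log2 scale, and higher in set B (difference of contrasts 1.98, adjusted p = 0.00073). Of 23 hypoxia and glycolysis genes, 5 were higher in set B and 0 in unwounded tamoxifen skin, where 16 were lower, and the contrasts differed in 16. Serpina3h and Clec2e differed between the wounded sets but were not called in unwounded skin (adjusted p = 0.069 and 0.72), and their difference of contrasts was 2.20 and 1.78 (adjusted p = 0.00011 and 0.00017).

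Most pigment and cell cycle genes were called in unwounded skin, and between the wounded sets 0 pigment genes (1 without A2) and 1 cell cycle gene were. Of 14 pigment genes 13 were higher with tamoxifen in unwounded skin, and the contrasts differed in 13. Tyr, the enzyme that starts melanin synthesis, was at 12.7, 9.55 and 9.20 RPKM in unwounded tamoxifen skin and 0.703, 0.631, 0.758 and 0.693 RPKM in unwounded vehicle skin, at 0.955, 1.95, 0.740 and 0.848 RPKM in the set A libraries and at 1.22, 1.18, 2.60 and 0.932 RPKM in those of set B. The wounded libraries A2 and B3 stood highest of their sets, and the sets overlapped (difference of contrasts -2.91, adjusted p = 7.1e-05). Of 25 cell cycle genes 24 were higher with tamoxifen in unwounded skin, and the contrasts differed in 20. Mki67 rose there by 1.09 (adjusted p = 3.2e-05), with a difference of contrasts of -0.99 (adjusted p = 0.0027). The genes in which the contrasts differed most precisely were Upp1 (uridine phosphorylase), Lpcat4, a lysophospholipid acyltransferase, and Gprc5a, a membrane receptor induced by retinoic acid, with smaller differences in wounded skin (-3.36, -1.90 and -3.52, adjusted p = 2.7e-06, 2.7e-06 and 3.0e-06). The difference of contrasts was positive for Snx20, a sorting nexin, and Clec4n, the fungal receptor dectin-2 (1.94 and 2.97, adjusted p = 3.0e-06 and 3.5e-06). Clec4n was lower in both contrasts, by -0.52 in set B (adjusted p = 0.013) and by -3.49 with tamoxifen in unwounded skin. Its positive value is therefore a smaller decrease in wounded skin.

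The authors' deposited table holds their own ratios and q-values for the same comparison under the gene table's names, that is, set B over set A. In the authors' deposited table, of 21346 genes with a q-value, 2724 had a q-value below 0.05 and a ratio above 1, and 2905 had a ratio below 1. Of the 4328 genes called here, 4276 had a q-value below 0.05 and the same direction in the authors' deposited table, which rests on the same libraries.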

How the data were processed

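RNA from whole skin was extracted with Trizol and a column kit and sequenced on a HiSeq3000, per the labels' protocols. Reads were mapped to mm10 with TopHat2 2.1.0 and RPKM values were made by the authors in Partek, per the submitters' processing notes. The sources do not state the annotation, the counting rule or whether strand was used. RPKM values per gene and library are the deposited unit on which every result rests. The deposited sample sheet gives counts of alignments per library, used for depth alone. The authors' deposited table also holds a p-value and q-value, a linear ratio, a signed fold change (a score) and group means in log2 for each comparison, of which the ratio and q-value were used.

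Tests used limma 3.58.1 in R 4.3.3 on log2(RPKM + 0.5) with an intensity trend, two-sided, with all 15 libraries in a model of their 4 groups (residual degrees of freedom 11), and Benjamini-Hochberg adjustment over 13922 genes. The fit was tested on simulated data. Deviations from the set means correlated at 0.12 to 0.43 in the 4 same-numbered pairs of wounded libraries, against -0.26 to 0.14 in 12 others. These ranges overlap, and A2 correlated at 0.14 with B3 and at 0.13 with B2. A pairing is thus not established, and a fit with replicate number as a block in the wounded libraries alone was run beside the main fit. The sets, gene lists and rules were chosen with earlier results of these data known. Named are the 10 largest and 10 most precise differences in each direction, up to 4 most precise called members of a list in each direction, defining members not called, and the 5 most precise differences of contrasts in each direction, of which a part is printed. Chosen outside that rule after their values were seen were B2m, Cd207, Cd3e, Cdh1, Cldn1, Cldn4, Col17a1, Dlx3, Fosl1, Ifit1, Inhba, Irf7, Klk7, Krt27, Msx2, Padi3, Pecam1, Retnla and the glucocorticoid genes. Promoters are RefSeq's on GRCm38.p6.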

Additional observations from a re-analysis of the deposited data

Results flagged for a closer look

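A library was singled out within a set of 4 where its distance from the nearest library made up more of the range of the set than the 95% critical value of Dixon's test for 4 samples. Over the genes printed, 300 such comparisons of RPKM were made and 32 passed. For independent comparisons of genes not selected, chance gives about 1 in 20. The genes printed were chosen largely for their differences, and many are hair genes in which the same library stood apart. The 32 of 300 therefore cannot be weighed against that rate. No cause was tested.

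In set A, A2 was the library apart in 14 of them, always as the highest. The share of the range was 0.982 for Krtap8-1, Krt34 and Krt86, 0.977 for Krt71 and Krt25, 0.976 for Krt27, 0.978 for Tchh, 0.971 for Padi3 and 0.989 for S100a3, all proteins of the hair shaft or inner root sheath. It was 0.957 for Msx2, 0.955 for Foxe1, 0.886 for Krt75 and 0.856 for Dsg4, and 0.889 for Gprc5a, a membrane receptor. A4 was the highest for Sox2 (0.844), Lgr6 (0.851) and Nnat (0.85), and A3 was the highest for Zbtb16 (0.842).

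In set B, B1 was the lowest library for Foxn1 (0.869), Hoxc13 (0.865), Krt27 (0.852) and Braf (0.831), and the highest for H2-Aa (0.917), Cpa3 (0.889), Il1f6 (0.874), Serpina3b (0.865) and Ccl8 (0.833). B3 was the lowest for Serpina3h (0.932), Gjb2 (0.918) and Cblb (0.8294). B2 was the highest for Zfp949 (0.845). In unwounded vehicle skin, V2 was the highest for H2-Q2 (0.836).

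The difference between set B and set A differed from that between tamoxifen and vehicle in unwounded skin, by limma's test of the 2 contrasts, in 5565 genes. Among genes with unwounded values printed, the wounded difference was more positive for Clec4n (2.97), Serpina3h (2.20), Il1b (1.98), Snx20 (1.94), Clec2e (1.78), Lamb3 (1.24) and H2-Ea-ps (0.66). It was more negative for Gprc5a (-3.52), Upp1 (-3.36), Tyr (-2.91), Lpcat4 (-1.90) and Mki67 (-0.99), all on the log2 scale. Clec4n, Snx20, Gprc5a, Upp1 and Lpcat4 were named for their small p in this same test, so that they passed it was fixed by that choice.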

How the results depend on the processing

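Differences between the sets kept their number within 1.5 times of 4328 genes in all settings but 2. The exceptions were limma's library weights, whose estimate stopped before it converged and which called 7041 genes, and the replicate block without the pair A2 and B2, added after the data were seen, which called 2279. The cause was not tested. A pseudocount of 0.1 or 1 gave 4307 or 4311, no filter 4637, a filter over 8 libraries 3999, median-of-ratios scaling 4355, the wounded libraries alone 3495 and, also without A2, 3293. The replicate block, a pairing by replicate number, gave 3686 genes in the wounded libraries and 3988 when nested in wound state. Among genes named, the block in the wounded libraries ended the calls of Krt1, Krt10, Ccr4 and Keap1. It added Krt6a, Cxcr2 and Upp1, and changed no other call. That fit also leaves out the unwounded libraries, so these changes are not those of the block alone. Leaving out 1 library gave 3167 to 5103 genes for the wounded sets, 8884 to 9506 for unwounded skin and 4742 to 5907 for the difference of contrasts, where the nested replicate block gave 4964. The block of unwounded skin gave 8310.

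Of the 144 genes printed with values, 127 were called, 113 of them under all 19 alternatives, and no called gene turned its direction. Genes at no difference changed sign. Sox2 stood at -0.01 (log2), at 0.000195 with a pseudocount of 0.1 and between -0.0989 and 0.19 with 1 library left out. Per1 stood at 0.01, at -0.0727 without A2 (also with the wounded libraries alone), at -0.0412 under the block without pair 2 and between -0.0727 and 0.0905 with 1 library left out. Depth limits genes near 0 RPKM, and RPKM keeps no counts, so no counting interval could be given.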

Other observations

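Over all genes tested, 15.5% were called higher and 15.6% lower. Schwann cell and myelin genes were higher in set B in 3 and lower in 6 of 13 members, and adipocyte markers were lower in 4 of 16. Red blood cell genes were higher in 1 and lower in 5 of 6 members, but lower in 2 with replicate number as a block. Merkel cell genes were higher in 2 of the 4 members tested, Krt8 and Krt18, of 7 listed. Sox2, also on that list, was not called. Of developmental pathways, genes of TGF-beta, activin and BMP signalling were higher in 7 of 22 members and lower in none, hedgehog genes were higher in 3 of 11 (1 with the wounded libraries alone), and Notch genes were higher in 5 and lower in 3 of 16. Of metabolic lists, mitochondrial respiratory chain genes were lower in 3 of 23 members (1 without A2) and cholesterol synthesis genes were higher in 1 and lower in 2 of 21.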
